A study of Mus musculus with 9 samples.

Results

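The enzymes described here are the 7 genes of the corneal crystallin group, namely Aldh3a1, Tkt, Aldh1a1, Aldh1a2, Aldh1a3, Aldh1a7 and Aldh2. They were chosen by name from the 34142 rows of the count table that name a gene. All 7 were found, and all 7 were among the 18489 genes that passed the filter on low counts. RNA of whole mouse corneas was sequenced in bulk in 9 libraries: Aire knockout corneas treated with PBS (KO + PBS, n = 4), untreated Aire knockout corneas (KO, n = 2) and untreated wild-type corneas (WT, n = 3). Aire is the gene that lets the thymus display proteins of other tissues, and mice without it develop autoimmune dry eye disease. The titles carry 24 hr for the KO + PBS libraries and 5 wk for the KO and WT libraries, while the series text gives day 7 of treatment at 6 wk of age, so the age of each group is not settled by the labels. Neither the strain nor the Aire allele is stated in the labels used, and a replicate may be 1 mouse or a pool. The knockout corneas treated with Lacripep that the series text names were not analysed here.

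Corneal crystallins are metabolic enzymes that a transparent tissue stores in amounts far beyond what catalysis needs. In the mouse cornea, Aldh3a1 (aldehyde dehydrogenase 3A1, which oxidises aldehydes made when ultraviolet light damages lipids) and Tkt (transketolase, an enzyme of the pentose phosphate pathway that supplies NADPH) are known as the abundant enzymes of the epithelium, and both have also been described in keratocytes. Aldh1a1 (retinaldehyde dehydrogenase 1) is known as a crystallin of keratocytes, the resting cells of the stroma. The other members are relatives that were not assigned to a layer here: Aldh1a2 and Aldh1a3 make retinoic acid from retinaldehyde, Aldh1a7 is a rodent copy of Aldh1a1, and Aldh2 is the mitochondrial enzyme that clears acetaldehyde. Whole-cornea RNA does not show which cell a transcript came from.

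On build GRCm38 (GENCODE M21), Aldh3a1 lies on the plus strand of chromosome 11 at 61207537 to 61218421 and Tkt on the plus strand of chromosome 14 at 30548359 to 30574720. Aldh1a1 (chromosome 19, 20492715 to 20643465, plus strand) and Aldh1a7 (chromosome 19, 20692953 to 20727562, minus strand) are neighbours. Aldh1a2 lies on the plus strand of chromosome 9 at 71215789 to 71296243. Aldh1a3 lies on the minus strand of chromosome 7 at 66390890 to 66427517, and Aldh2 on the minus strand of chromosome 5 at 121566027 to 121593824. The longest transcripts of Aldh1a1 and Aldh1a7 were 89.6% identical over 2051 aligned bases. Of the 50-base windows of each transcript, 6.54% in Aldh1a1 and 7.49% in Aldh1a7 occurred unchanged in the other, and of the 100-base windows 0.0443% and 0.0508% did. No source used here states the read length, so the share of reads that could not be placed between them is unknown. Exons of Aldh2 overlapped those of the predicted gene Gm42879 on the opposite strand, and exons of Tkt held the microRNA gene Mir3076 on the same strand. The sources used here do not say whether counting used strand.

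Promoter windows were read for the 4 of 7 members with an entry in the RefSeq table (GRCm38.p6), and each window printed is the 120 bases before an annotated start. They are shown because they place the copied pair Aldh1a1 and Aldh1a7 beside a more distant relative and beside the epithelial enzyme Tkt. Searched on both strands were the octamer ATGCAAAT, which POU-domain factors are known to bind, the CCAAT box CCAAT, the TATA box TATAAA and the GC box GGGCGG. Capitals mark matches.
Aldh1a1, second start, chr19:20601848-20601967, plus strand: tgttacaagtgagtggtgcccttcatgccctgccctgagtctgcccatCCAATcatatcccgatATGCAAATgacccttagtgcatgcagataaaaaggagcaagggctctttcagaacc
Aldh1a7, chr19:20727557-20727676, minus strand: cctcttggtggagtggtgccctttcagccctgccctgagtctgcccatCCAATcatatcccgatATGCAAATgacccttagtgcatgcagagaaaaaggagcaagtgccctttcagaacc
Aldh1a2, chr9:71215669-71215788, plus strand: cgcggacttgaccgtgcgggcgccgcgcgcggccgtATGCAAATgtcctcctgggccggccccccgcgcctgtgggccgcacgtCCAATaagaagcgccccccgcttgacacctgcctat
Tkt, chr14:30549011-30549130, plus strand: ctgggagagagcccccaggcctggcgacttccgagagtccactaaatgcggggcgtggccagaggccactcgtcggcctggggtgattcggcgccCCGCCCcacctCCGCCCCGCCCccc
The Aldh1a1 and Aldh1a7 windows were identical at 105 of 120 bases (87.5%), and each held 1 octamer and 1 CCAAT box at the same distance from the start. The Aldh1a2 window held 1 octamer and 1 CCAAT box in the opposite order and was 43.8% identical to the Aldh1a1 window. The Tkt window held 3 GC boxes, the last pair sharing a base, and was 74.2% G and C. Among 32851 windows of the same length, 0.791% held the octamer, 21.3% the CCAAT box, 26.5% the GC box and 6.34% the TATA box. The window before the first Aldh1a1 start (chr19:20492463-20492582) held none of the 4 motifs. Aldh3a1, Aldh1a3 and Aldh2 had no entry.

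Library totals were 22913807 to 27079143 counts in KO + PBS, 25345603 and 68512972 counts in KO, and 38316117 to 104480485 counts in WT. Processed pseudogenes took 0.289 to 0.361% of counts in KO + PBS, against 17.6 and 19.0% in KO and 20.6 to 22.1% in WT, so in any comparison with KO + PBS the treatment cannot be told apart from the kind of library. Aire had 2 to 9 counts in KO + PBS, 0 and 3 in KO and 3 to 16 in WT, which is too few to check the genotype labels. KO + PBS replicate 2 stood apart, with 3252 CPM (counts per 1000000 counts, scaled between libraries) of 7 iris, ciliary body and melanocyte markers, against 126 to 403 CPM in the other KO + PBS libraries. Markers of other eye tissues were not limited to that library. The 11 lens markers summed to 2002, 5717, 352 and 1550 CPM in KO + PBS, 140 and 148 CPM in KO, and 430, 346 and 141 CPM in WT. Of the 10 lens markers tested, 9 rose in KO + PBS against WT and 9 against KO (8 were higher in each without KO + PBS replicate 2). Over all genes, 27.1% were called higher against WT and 23.6% against KO. The 8 retina markers summed to 37.5, 383, 1164 and 901 CPM in KO + PBS, 18.2 and 36.8 CPM in KO, and 374, 40.3 and 139 CPM in WT, and 5 of the 8 rose in KO + PBS against KO. Every comparison with KO + PBS below carries these differences, and their part in the results was not tested. Results that rest on KO + PBS replicate 2 are given with and without it. Changes were tested with edgeR's quasi-likelihood test in 1 fit to all 9 libraries, and rose and fell are used only at an adjusted p under 0.05 in that fit. A fit to only the 2 groups compared is given where it changes a call, because it does not take the spread of the third group.

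**Figure D1:**
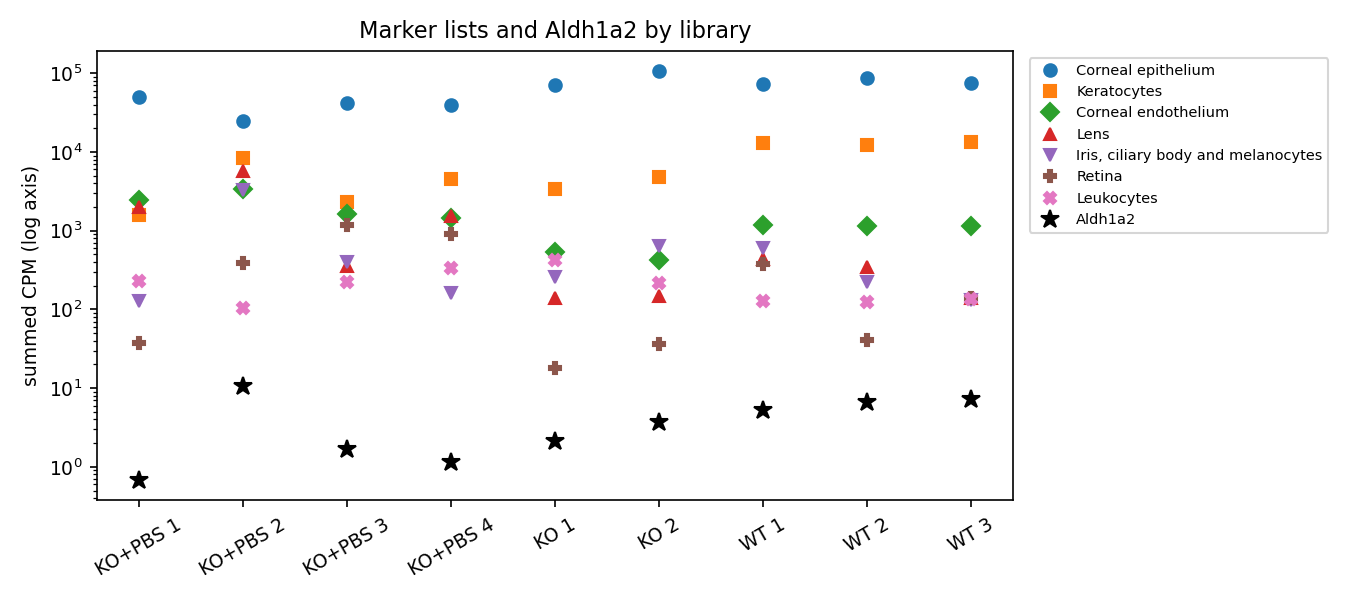
Summed CPM of 7 cell-type marker lists and the CPM of Aldh1a2 in each library, on a log axis. KO + PBS replicate 2 has the highest iris, ciliary body and melanocyte sum (3252 CPM), the highest lens sum (5717 CPM) and the highest Aldh1a2 level (10.7 CPM) of the 9 libraries.

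Aldh3a1 and Tkt were far above the other 5 enzymes in every group. Aldh3a1 ranked 2 to 4 among all genes by counts in every library, and Tkt ranked 3 to 16. Per kilobase of exon, Aldh3a1 averaged 6172 ± 1921 CPM in KO + PBS, 11329 ± 3648 CPM in KO and 13608 ± 1356 CPM in WT, and Tkt averaged 667 ± 233 CPM in KO + PBS, 883 ± 159 CPM in KO and 1144 ± 44.5 CPM in WT (SD, n = 4, 2 and 3). In no group did the libraries of Aldh3a1 and Tkt, or of Tkt and the next gene, overlap.

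The order below these enzymes differed by group. In KO + PBS, Aldh1a3 came next at 45.9 ± 5.82 CPM per kilobase, above Aldh2 at 25.3 ± 6.64 and Aldh1a1 at 18.2 ± 3.30 CPM per kilobase, whose libraries overlapped each other. In KO, Aldh1a3 (32.8 ± 19.6 CPM per kilobase) and Aldh2 (21.1 ± 4.45) overlapped and lay above Aldh1a1 (7.40 ± 3.36). In WT, Aldh1a1 led at 46.9 ± 5.58 CPM per kilobase, overlapping Aldh2 at 39.5 ± 2.43, and both lay above Aldh1a3 at 14.6 ± 1.64. Aldh1a7 and Aldh1a2 were last in each group, at 3.63 ± 0.527 and 1.57 ± 2.11 CPM per kilobase in KO + PBS, where they overlapped, at 3.03 ± 0.417 and 1.29 ± 0.477 in KO, and at 5.21 ± 0.580 and 2.81 ± 0.477 in WT. Aldh1a1 was thus the first of these 5 in WT and below both Aldh1a3 and Aldh2 in mean level in both knockout groups.

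**Figure D2:**
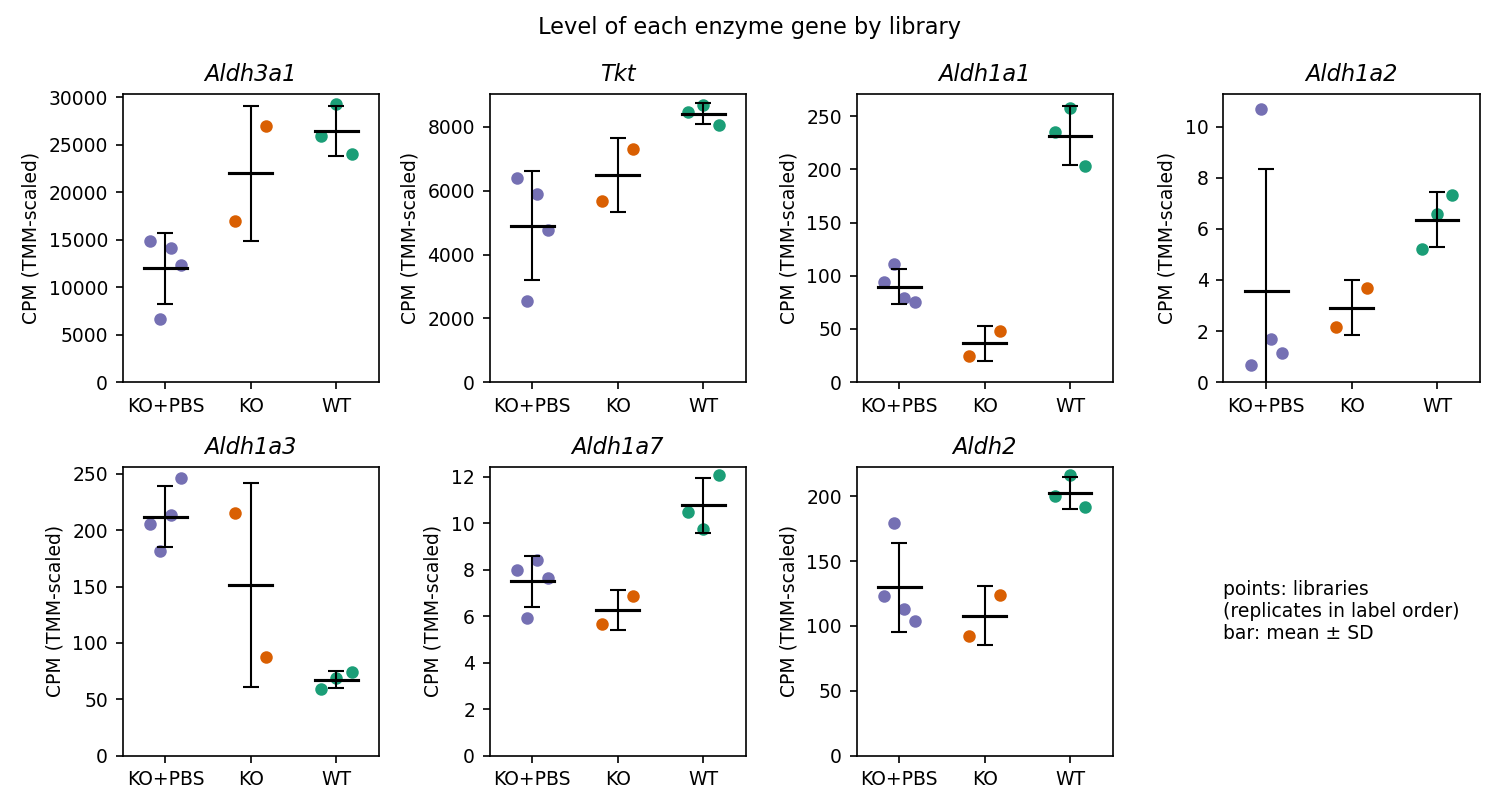
CPM (TMM-scaled) of each enzyme gene by library, with the mean and SD of each group (KO + PBS n = 4, KO n = 2, WT n = 3). Aldh1a1 is highest in the 3 WT libraries (203 to 257 CPM), Aldh1a3 is lowest in them (59.1 to 73.9 CPM), and 1 KO + PBS library stands apart for Aldh1a2 (10.7 CPM).

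Of the epithelial enzymes, both fell in KO + PBS against WT, and neither passed the test between KO and WT. Aldh3a1 had 14839, 6618, 14148 and 12337 CPM in KO + PBS, 16991 and 27010 CPM in KO, and 25913, 29278 and 24088 CPM in WT. The 4 KO + PBS libraries lay below all others, while the KO libraries lay on both sides of the lowest WT library. Aldh3a1 fell 2.20-fold in KO + PBS against WT (log2 fold change -1.14 ± 0.293 SE, adjusted p = 0.00889). Its log2 fold change was -0.26 ± 0.354 in KO against WT (adjusted p = 0.753). Aldh3a1 also fell 1.84-fold in KO + PBS against KO (log2 fold change -0.88 ± 0.325, adjusted p = 0.0467), and this call was lost in the fit to only these groups (-0.81 ± 0.386, adjusted p = 0.131). With 1 library left out in turn it was kept in 2 of 9 fits to all libraries, those without KO + PBS replicate 1 or 2. The log2 fold change ran to -0.42 without KO replicate 2, which leaves 1 KO library.

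Tkt had 6412, 2546, 5890 and 4773 CPM in KO + PBS, 5664 and 7322 CPM in KO, and 8479, 8700 and 8056 CPM in WT. Every WT library was above every knockout library, and the KO + PBS and KO libraries overlapped. Tkt fell 1.71-fold in KO + PBS against WT (log2 fold change -0.78 ± 0.290, adjusted p = 0.0449), a call near the threshold that was kept in 2 of the 9 fits with 1 library left out, those without KO + PBS replicate 1 or 2. It was lost without any 1 WT library (adjusted p = 0.0905 to 0.110), either KO library (0.0515 and 0.0522), or KO + PBS replicate 3 or 4 (0.0502 and 0.0862). Its log2 fold change was -0.37 ± 0.352 in KO against WT (adjusted p = 0.635) and -0.40 ± 0.326 in KO + PBS against KO (adjusted p = 0.323).

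Epithelial markers were set beside these enzymes. Of the 13 corneal epithelium markers, 12 were in the table, and they summed to 49782, 25057, 42001 and 39796 CPM in KO + PBS, 70912 and 106046 CPM in KO, and 73796, 87022 and 76026 CPM in WT. Against WT, 3 of the 12 rose (Cdh1, Ktn1 and Pax6, which is also among the regulators below) and 4 fell (Krt12, Slurp1, Lypd2 and Aqp5) in KO + PBS. This is near the share of all genes called there (27.1% higher and 30% lower). Against KO, 2 rose and 6 fell in KO + PBS, beside 23.6% of all genes higher and 29.7% lower. Between KO and WT, Krt14 rose in KO (log2 fold change 2.36, adjusted p = 0.0253) and no other marker was called. The shares of all genes there were 0.963% higher and 0.703% lower. Krt12, the keratin that defines corneal epithelium, averaged 4939 ± 947 CPM in KO + PBS and 30311 ± 2705 CPM in WT, and Krt5, the keratin of basal epithelial cells, averaged 20387 CPM in KO + PBS and 21424 CPM in WT. Per 1000 CPM of the marker sum, Aldh3a1 had 298, 264, 337 and 310 CPM in KO + PBS, 240 and 255 CPM in KO, and 351, 336 and 317 CPM in WT, so the KO + PBS libraries overlapped WT on this scale and the KO libraries lay lowest. Tkt had 129, 102, 140 and 120 CPM per 1000 CPM of the marker sum in KO + PBS, 79.9 and 69.0 CPM in KO, and 115, 99.98 and 106 CPM in WT. On this scale Tkt averaged 123 ± 16.3 CPM in KO + PBS and 107 ± 7.51 CPM in WT (SD, n = 4 and 3), with overlapping libraries, so its mean was not lower in KO + PBS. Per 1000 CPM of Krt12 alone, Aldh3a1 was higher in every KO + PBS library (1766 to 2705 CPM) than in KO (758 and 706 CPM) and in WT (803 to 933 CPM). The part of epithelial content in the change of Aldh3a1 and Tkt was not tested.

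The ratio of the epithelial enzymes needs no scaling between libraries. Aldh3a1 had 2.31, 2.60, 2.40 and 2.59 counts per Tkt count in KO + PBS, 3.00 and 3.69 in KO, and 3.06, 3.37 and 2.99 in WT. The KO + PBS ratios were below all others. Against WT the ratio was 0.789 times as high in KO + PBS (exact permutation test, two-sided, p = 0.0571, the smallest that 4 against 3 libraries allow; 0.171 after Benjamini-Hochberg adjustment over the 6 ratio tests made). Against KO it was 0.743 times as high in KO + PBS (exact p = 0.133, the smallest allowed; adjusted 0.266), and between KO and WT the exact p was 0.600.

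**Figure D3:**
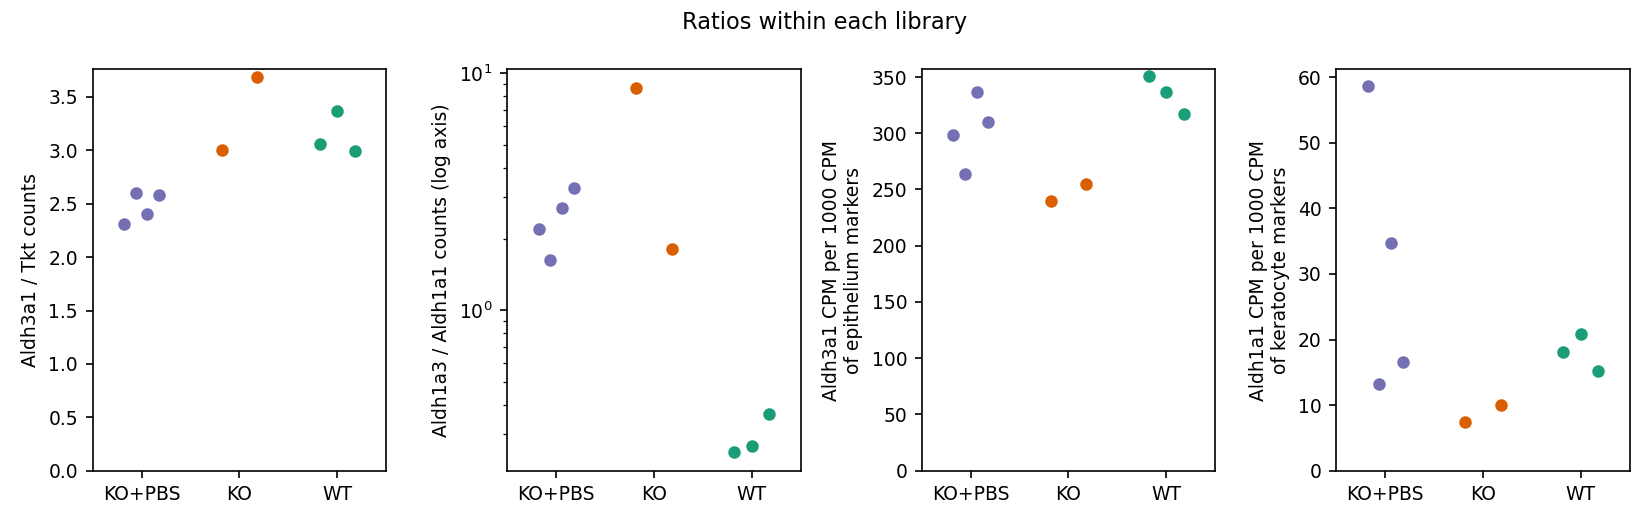
Ratios within each library for KO + PBS, KO and WT, 1 point per library: Aldh3a1 counts per Tkt count, Aldh1a3 counts per Aldh1a1 count (log axis), Aldh3a1 per 1000 CPM of epithelium markers and Aldh1a1 per 1000 CPM of keratocyte markers. Aldh1a3 outnumbers Aldh1a1 in all 6 knockout libraries (ratios 1.64 to 8.68) and in none of the WT libraries (0.251 to 0.365).

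Aldh1a1, known as a crystallin of keratocytes, fell in both knockout groups against WT and was higher in KO + PBS than in KO. It had 93.9, 111, 79.3 and 74.9 CPM in KO + PBS, 24.8 and 48.3 CPM in KO, and 235, 257 and 203 CPM in WT. No library of any group overlapped another group. It fell 6.33-fold in KO against WT (log2 fold change -2.66 ± 0.322, adjusted p = 0.0214), and in KO + PBS against WT it fell 2.58-fold (log2 fold change -1.37 ± 0.240, adjusted p = 0.00113). Set against KO, it rose 2.45-fold in KO + PBS (log2 fold change 1.29 ± 0.291, adjusted p = 0.00495). The call in KO against WT was lost in the fit to all libraries when any 1 WT library was left out (adjusted p = 0.102 to 0.112), and it was kept in every such fit to only these groups (adjusted p at most 0.0211). In bulk samples, fewer keratocytes and less RNA per keratocyte cannot be told apart, and the cells that held the Aldh1a1 transcripts are not shown.

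Keratocyte markers were set beside it. All 15 were measured, and they summed to 1602, 8390, 2288 and 4502 CPM in KO + PBS, 3336 and 4843 CPM in KO, and 12996, 12372 and 13364 CPM in WT. Between KO and WT, 5 of the 15 fell in KO and none rose, while 11 were called lower in the fit to only these groups and 9 without KO + PBS replicate 2. The shares of all genes called lower in these fits were 0.703%, 8.99% and 5.44%. In KO + PBS, 1 of the 15 rose and 8 fell against WT, beside 27.1% of all genes higher and 30% lower. Against KO, 6 rose and 2 fell in KO + PBS, beside 23.6% of all genes higher and 29.7% lower. The median log2 fold change of the 15 against KO was 0.36, and -0.04 without KO + PBS replicate 2, when 6 were higher and 3 lower. The 6 that rose in the fit to all libraries ran from 2.22 (Kera) to 4.10 (Thbd) in log2 fold change, beside 1.29 for Aldh1a1. Kera, the keratan sulfate proteoglycan keratocan, averaged 111 ± 71.7 CPM in KO + PBS, 23.7 ± 0.883 CPM in KO and 479.9 ± 36.3 CPM in WT, and Dcn (decorin) averaged 500 CPM in KO + PBS, 82.5 CPM in KO and 1242 CPM in WT. Both were among the 6 markers that rose in KO + PBS against KO. The 2 that fell there were Fmod (log2 fold change -1.78, adjusted p = 0.0201) and B3gnt7 (-1.39, adjusted p = 0.0327). Per 1000 CPM of the marker sum, Aldh1a1 had 58.6, 13.2, 34.7 and 16.6 CPM in KO + PBS, 7.44 and 9.97 CPM in KO, and 18.1, 20.8 and 15.2 CPM in WT. The KO libraries were lowest on this scale, and KO + PBS overlapped WT. Per 1000 CPM of Kera alone the order was the other way, with 1022 and 2094 CPM in KO against 404 to 588 CPM in WT. The direction of Aldh1a1 relative to keratocyte content therefore depended on the markers chosen. Markers of the corneal endothelium, the cell layer on the inner face of the cornea, had their lowest sums in KO as Aldh1a1 did. The 8 markers summed to 2470, 3387, 1615 and 1436 CPM in KO + PBS, 536 and 430 CPM in KO, and 1176, 1131 and 1137 CPM in WT. In KO against WT, 2 of the 8 fell and none rose (median log2 fold change -2.23), and 6 were lower in the fit to only these groups. All 8 rose in KO + PBS against KO (median 3.34; 2.81 without KO + PBS replicate 2, again all 8 higher). Where Aldh1a1 fell in KO + PBS against WT, 5 of the 8 endothelium markers rose and none fell. The part of keratocyte or endothelial content in the change of Aldh1a1 was not tested.

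Aldh1a3 was the only member called higher than WT in KO + PBS. It had 206, 182, 214 and 247 CPM in KO + PBS, 216 and 87.4 CPM in KO, and 59.1, 69.2 and 73.9 CPM in WT. All 6 knockout libraries were above WT, and the KO libraries differed 2.47-fold from each other. Aldh1a3 rose 3.14-fold in KO + PBS against WT (log2 fold change 1.65 ± 0.290, adjusted p = 0.00113), and this call was kept when any 1 library was left out (adjusted p at most 0.00814). The log2 fold change in KO against WT was 1.17 ± 0.325 (adjusted p = 0.110; 0.0704 in the fit to only these groups), and without KO replicate 1 it was 0.30. In KO + PBS against KO it was 0.48 ± 0.319 (adjusted p = 0.228), and without KO replicate 1, which leaves 1 KO library, it was 1.36.

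Aldh1a3 and Aldh1a1 catalyse the same step, from retinaldehyde to retinoic acid. Their ratio was higher in every library of both knockout groups than in every WT library. There were 2.19, 1.64, 2.70 and 3.29 Aldh1a3 counts per Aldh1a1 count in KO + PBS, 8.68 and 1.81 in KO, and 0.251, 0.269 and 0.365 in WT. The ratio was 8.16 times as high in KO + PBS as in WT (exact permutation p = 0.0571, adjusted 0.171) and 13.6 times as high in KO as in WT (exact p = 0.200, the smallest that 2 against 3 libraries allow; adjusted 0.300). Between KO + PBS and KO it was 0.599 times as high (exact p = 0.533). With groups of this size no such test can reach 0.05.

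Aldh1a2, the third maker of retinoic acid, was the least abundant member per kilobase. It had 0.682, 10.7, 1.68 and 1.14 CPM in KO + PBS, 2.16 and 3.68 CPM in KO, and 5.20, 6.57 and 7.33 CPM in WT, and its counts ran from 18 to 537 per library. KO + PBS replicate 2 exceeded every other library, and the other 3 KO + PBS libraries were below KO and WT. With that library the log2 fold change was -0.84 ± 0.829 in KO + PBS against WT (adjusted p = 0.409) and 0.28 ± 0.965 in KO + PBS against KO (adjusted p = 0.828). Without it Aldh1a2 was lower in KO + PBS against WT (-2.43 ± 0.378, adjusted p = 0.000580) and against KO (-1.32 ± 0.402, adjusted p = 0.0200), so the direction against KO turned with 1 library. The same library held the highest sums of iris, ciliary body and melanocyte markers, all 7 of which were above their level in every other library. Its sums of lens (5717 CPM), corneal endothelium (3387 CPM) and blood vessel markers (76.1 CPM) were also the highest of all libraries. Within KO + PBS, its keratocyte (8390 CPM) and conjunctiva sums (1685 CPM) were highest and its corneal epithelium sum (25057 CPM) was lowest. Per 1000 CPM of keratocyte markers, Aldh1a2 had 0.426, 1.28, 0.733 and 0.254 CPM in KO + PBS. The part of any of these tissues in the Aldh1a2 level was not tested. The log2 fold change of Aldh1a2 in KO against WT was -1.12 ± 1.04 (adjusted p = 0.629), and -1.09 ± 0.291 in the fit to only these groups (adjusted p = 0.0401).

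Aldh1a7, the copy of Aldh1a1, was low throughout. It had 7.99, 5.93, 8.41 and 7.65 CPM in KO + PBS, 5.66 and 6.88 CPM in KO, and 10.5, 9.75 and 12.1 CPM in WT. WT libraries were above all knockout libraries, and the knockout groups overlapped. It fell 1.44-fold in KO + PBS against WT (log2 fold change -0.52 ± 0.188, adjusted p = 0.0391). This call was kept in 3 of the 9 fits with 1 library left out, those without KO + PBS replicate 2 or either KO library, and without any other library the adjusted p lay just above the threshold of 0.05 or higher, up to 0.156. For KO against WT the value was -0.78 ± 0.231 (adjusted p = 0.129), and it passed in the fit to only these groups (adjusted p = 0.0274). Aldh1a1 had 9.43 to 18.7 counts per Aldh1a7 count in KO + PBS, 4.39 and 7.02 in KO, and 16.8 to 26.4 in WT, so the copies did not change by the same factor between KO and WT libraries. With the counts of both genes added together, the log2 fold change was -2.50 in KO against WT and -1.32 in KO + PBS against WT.

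Aldh2, the mitochondrial enzyme, had 123, 179, 113 and 104 CPM in KO + PBS, 91.8 and 124 CPM in KO, and 199.9, 216 and 191 CPM in WT. Again the WT libraries were above all others and the knockout groups overlapped, with KO + PBS replicate 2 the highest of the knockout libraries. Aldh2 fell 1.56-fold in KO + PBS against WT (log2 fold change -0.64 ± 0.210, adjusted p = 0.0269; -0.83 without replicate 2). This call too was kept in 3 of the 9 such fits, those without KO + PBS replicate 2 or either KO library, and the adjusted p was 0.0527 to 0.108 without any other library. The log2 fold change of Aldh2 in KO against WT was -0.91 ± 0.260 (adjusted p = 0.118), which passed in the fit to only these groups (adjusted p = 0.0110). Aldh1a1 had 0.618 to 0.764 counts per Aldh2 count in KO + PBS, 0.270 and 0.389 in KO, and 1.06 to 1.19 in WT, with no overlap between the groups.

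Counted by comparison, 6 of the 7 members passed in KO + PBS against WT, 1 higher and 5 lower. There 27.1% of all genes tested were called higher and 30% lower, which is the share that a call in either direction has to be read against. In the fit to only these groups the count was the same, against 27.8% of genes higher and 29.4% lower. In KO + PBS against KO, 1 member was called higher and 1 lower, against 23.6% and 29.7% of all genes, and in the fit to only these groups 1 was called higher, against 20.7% higher and 22.8% lower. In KO against WT, 1 member (Aldh1a1) was called, lower, against 0.963% of all genes higher and 0.703% lower. Without any 1 WT library that fit called 0 genes in KO against WT (edgeR; before adjustment, 2184 to 2392 genes had a p under 0.05), so each call named for this comparison is lost there. In the fit to only these groups, 4 were called lower (Aldh1a1, Aldh1a2, Aldh1a7 and Aldh2) and none higher, against 11.5% of genes higher and 8.99% lower. Without KO + PBS replicate 2 the fit to the other libraries called 1 member higher and 6 lower in KO + PBS against WT (30.8% and 35.8% of genes), 1 higher and 2 lower in KO + PBS against KO (27.8% and 35.4% of genes), and 1 higher and 3 lower in KO against WT (6.72% and 5.44% of genes). The comparisons share libraries, so their counts are not independent. The median log2 fold change of the 7 was -0.78 in KO + PBS against WT, beside 0.05 over all genes, 0.26 in KO + PBS against KO, beside -0.02, and -0.78 in KO against WT, beside -0.02.

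**Figure D4:**
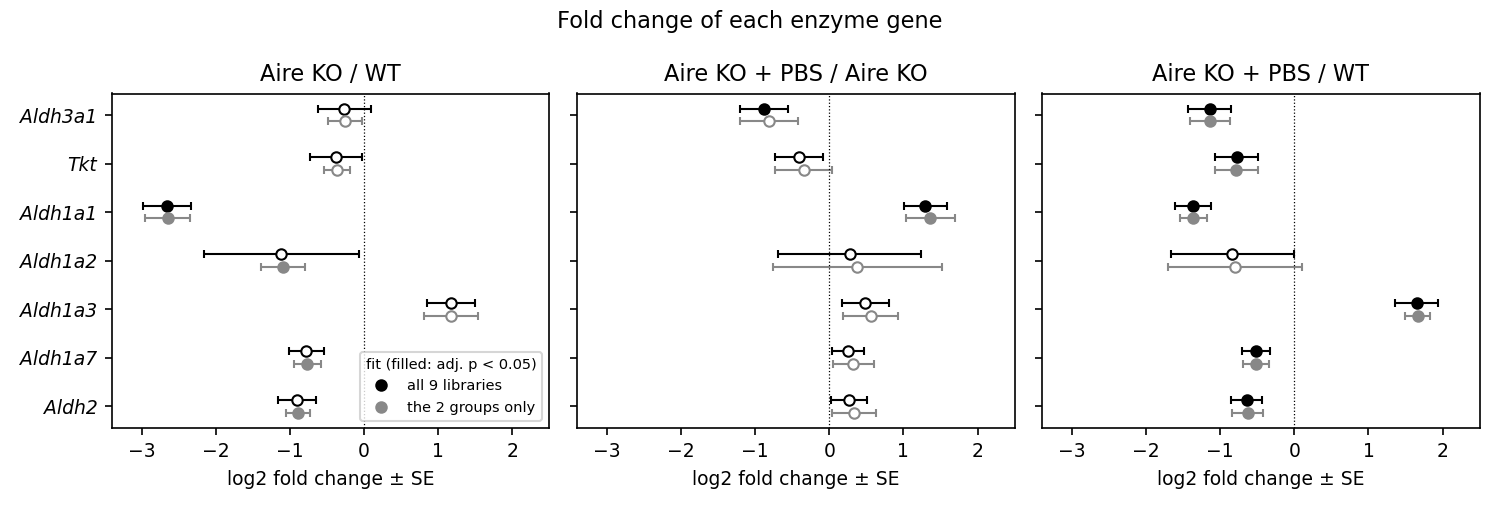
Log2 fold change ± SE of the 7 enzyme genes in KO against WT, KO + PBS against KO and KO + PBS against WT, from the fit to all 9 libraries (black) and to only the groups compared (grey), with filled points at an adjusted p under 0.05. Aldh1a3 is the only member right of 0 in KO against WT and in KO + PBS against WT, and Aldh1a1 has the largest fall in KO against WT (-2.66).

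Each of the 3 main enzymes was set beside the 12125 other named genes whose mean reached 2 CPM, by the root mean square difference in log2 CPM over the 9 libraries after centring each gene. Nearest to Aldh3a1 were Ptgr1 (prostaglandin reductase 1) at 0.0614, Cbln3 at 0.127 and Efcab6 at 0.137. Ptgr1 averaged 416 ± 126 CPM in KO + PBS, 727 ± 164 CPM in KO and 927 ± 97.4 CPM in WT. Nearest to Tkt were the heat-shock gene Hspa1a at 0.115, Sdr42e1 at 0.128 and the sterol reductase gene Tm7sf2 at 0.158. Aldh3a1 and Tkt were 0.212 apart, with 25 genes nearer to Aldh3a1 and 32 nearer to Tkt. Nearest to Aldh1a1 were Gzmm at 0.349, Stc2 at 0.422 and Angptl1 at 0.453. Such distances are larger for a gene that itself varies more. Aldh1a1 ran from 24.8 to 257 CPM over the libraries and Tkt from 2546 to 8700 CPM. The distances of different enzymes therefore do not show which is tracked more closely. The member nearest to Aldh1a1 was Aldh2 at 0.679, with 83 genes nearer, and Aldh1a7 was 0.794 away. The libraries share depth and kind within a group, so these distances are descriptions of 9 libraries.

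The pathways around the enzymes were described by lists, whose counts have to be read against the shares of all genes called. Those shares were 27.1% higher and 30% lower in KO + PBS against WT, and 23.6% and 29.7% in KO + PBS against KO. In KO against WT they were 0.963% and 0.703%, and 11.5% and 8.99% in the fit to only these groups. Of 14 other tested aldehyde dehydrogenases, 2 rose and 4 fell in KO + PBS against WT (median log2 fold change -0.04, beside 0.05 over all genes). Aldh6a1, the mitochondrial enzyme of valine breakdown, rose to 30.3 CPM in KO + PBS, against 4.11 CPM in KO and 9.32 CPM in WT (log2 fold change 1.70 against WT, adjusted p = 0.000309). Aldh4a1, of proline breakdown, fell to 4.92 CPM in KO + PBS, against 12.6 CPM in KO and 17.7 CPM in WT (-1.85 against WT, adjusted p = 5.63e-05). Aldh3b3, a relative of Aldh3a1 that the table lists under an older symbol, averaged 0.0633 CPM in KO + PBS, 23.3 CPM in KO and 13.7 CPM in WT. Aldh1l2, the mitochondrial folate enzyme, averaged 2.02 CPM in KO + PBS, 0.216 CPM in KO and 0.278 CPM in WT. Against KO, 4 rose and 4 fell in KO + PBS. None of the 14 passed in KO against WT, and in the fit to only these groups Aldh3b2 was higher and 5 were lower (Aldh6a1, Aldh3a2, Aldh9a1, Aldh4a1 and Aldh7a1).

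Of 12 tested partners of Tkt in the pentose phosphate pathway, 2 rose and 4 fell in KO + PBS against WT, and 2 rose and 6 fell in KO + PBS against KO. Over all genes, 27.1% were higher and 30% lower against WT, and 23.6% and 29.7% against KO. G6pdx, which opens the pathway and makes NADPH, averaged 159 CPM in KO + PBS, 393 CPM in KO and 269 CPM in WT, and fell against both (log2 fold change -1.31 against KO, adjusted p = 0.00396, and -0.76 against WT, adjusted p = 0.0303). Pgls, the next enzyme, averaged 54.9 CPM in KO + PBS, 153 CPM in KO and 132 CPM in WT (-1.26 against WT, adjusted p = 0.000264). Taldo1, the transaldolase that works beside Tkt, fell to 222 CPM in KO + PBS, against 516 CPM in KO and 404 CPM in WT (-0.86 against WT, adjusted p = 0.00584). Rpe rose to 24.7 CPM in KO + PBS, against 8.41 CPM in KO and 7.38 CPM in WT. None of the 12 passed in KO against WT, and the median log2 fold change was 0.20, on the other side of 0 from Tkt (-0.37). In the fit to only these groups 3 were higher (Rpia, H6pd and Pgd) and none lower. The Tkt relatives Tktl1 and Tktl2 were below the filter.

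Of 29 tested genes of retinoid metabolism and retinoic acid signalling, 3 rose and 7 fell in KO + PBS against WT, and 4 rose and 8 fell in KO + PBS against KO. Beside them, 27.1% of all genes were higher and 30% lower against WT, and 23.6% and 29.7% against KO. Without KO + PBS replicate 2, of 28 tested, 5 were higher and 10 lower against WT and 5 higher and 12 lower against KO. The shares of all genes were then 30.8% and 35.8% against WT, and 27.8% and 35.4% against KO. Rarb, a retinoic acid receptor, had 2.46, 15.5, 3.24 and 4.58 CPM in KO + PBS, against means of 0.130 CPM in KO and 0.172 CPM in WT. It rose in KO + PBS against WT (log2 fold change 5.22, adjusted p = 0.00122; 4.32 without replicate 2, adjusted p = 0.000465). Crabp1, which carries retinoic acid in the cytoplasm, fell to 0.833 CPM in KO + PBS, against 9.65 CPM in KO and 14.5 CPM in WT (-4.12 against WT, adjusted p = 2e-05). Rdh10, which makes retinaldehyde, the substrate of the Aldh1a enzymes, rose to 34.6 CPM in KO + PBS, against 17.2 CPM in KO and 21.3 CPM in WT (0.70 against WT, adjusted p = 0.00885), while Dhrs3, which turns retinaldehyde back to retinol, fell to 64.7 CPM in KO + PBS, against 156 CPM in KO and 116 CPM in WT (-0.84 against WT, adjusted p = 0.00586). Among the other genes of the list, Rarres2 fell in KO + PBS against WT (-2.27, adjusted p = 0.00897). Cyp26a1, Crabp2 and Tgm2 did not pass there (adjusted p = 0.530, 0.257 and 0.0933). The state of retinoic acid signalling was not tested. No gene of the 29 passed in KO against WT. In the fit to only these groups Fabp5, Rxra, Rara, Tgm2 and Rarg were higher and Adh7 and Rarres2 lower, of 27 tested.

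Of 16 other enzymes that reduce, oxidise or conjugate aldehydes, 13 fell and none rose in KO + PBS against WT (median log2 fold change -1.01), and 13 fell and 1 rose in KO + PBS against KO (median -1.14). Over all genes, 30% were lower and 27.1% higher against WT, and 29.7% and 23.6% against KO. Gsta4, the glutathione transferase of lipid aldehydes, was the most abundant of the 16 and averaged 3504 CPM in KO + PBS, 9479 CPM in KO and 8700 CPM in WT (-1.31 against WT, adjusted p = 0.00305). Adh5, which clears formaldehyde, fell to 36.9 CPM in KO + PBS, against 54.0 CPM in KO and 75.0 CPM in WT (-1.02 against WT, adjusted p = 3.91e-05). A single gene of the 16 passed in KO against WT, the aldo-keto reductase gene Akr1b8, with 14.8 CPM in KO + PBS, 112 CPM in KO and 14.3 CPM in WT (log2 fold change 2.97 in KO against WT, adjusted p = 0.0182). In the fit to only these groups 4 were higher, all aldo-keto reductases (Akr1b3, Akr1b7, Akr1b8 and Akr1b10), and 4 lower (Adh5, Aox1, Aox3 and Gstm1).

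Of 11 tested enzymes and stress proteins that serve as crystallins in other animals or in the lens, 1 rose and 5 fell in KO + PBS against WT (2 higher and 7 lower without KO + PBS replicate 2). Over all genes, 27.1% were higher and 30% lower in KO + PBS against WT, and 30.8% and 35.8% without replicate 2. Gapdh averaged 550 CPM in KO + PBS, 293 CPM in KO and 207 CPM in WT (1.41 against WT, adjusted p = 0.000212), and Eno1, the tau-crystallin of some reptiles and birds, 318 CPM in KO + PBS, 802 CPM in KO and 647 CPM in WT (-1.03 against WT, adjusted p = 0.000257). Sequence that these genes share with processed pseudogenes, whose share of counts was far lower in KO + PBS than in KO and WT, was not examined. Against KO, 2 rose and 5 fell in KO + PBS (4 higher and 6 lower without replicate 2). The shares of all genes there were 23.6% higher and 29.7% lower (27.8% and 35.4% without replicate 2). None passed in KO against WT, and 3 were lower in the fit to only these groups (Cryl1, Ldha and Cryab). Of 6 regulators reported for Aldh3a1 or Tkt, 4 rose in KO + PBS against WT and none fell. Their part in the levels of Aldh3a1 and Tkt was not tested. The shares of all genes in that comparison were 27.1% higher and 30% lower. Pax6, the master regulator of eye development, averaged 467 CPM in KO + PBS, 123 CPM in KO and 160 CPM in WT (1.55 against WT, adjusted p = 0.000394). Klf4, a factor of epithelial maturation, averaged 1340 CPM in KO + PBS, 419 CPM in KO and 455.5 CPM in WT (1.56 against WT, adjusted p = 0.0142). Its KO + PBS libraries had 1981, 407, 1407 and 1566 CPM, so replicate 2 lay below every WT library. Without replicate 2 the log2 fold change of Klf4 against WT was 1.865 (adjusted p = 1.075e-05). Against KO, 5 of the 6 regulators rose and 1 fell in KO + PBS. None passed in KO against WT, and in the fit to only these groups Klf5 was higher and Nfe2l2 and Ahr lower.

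**Figure D5:**
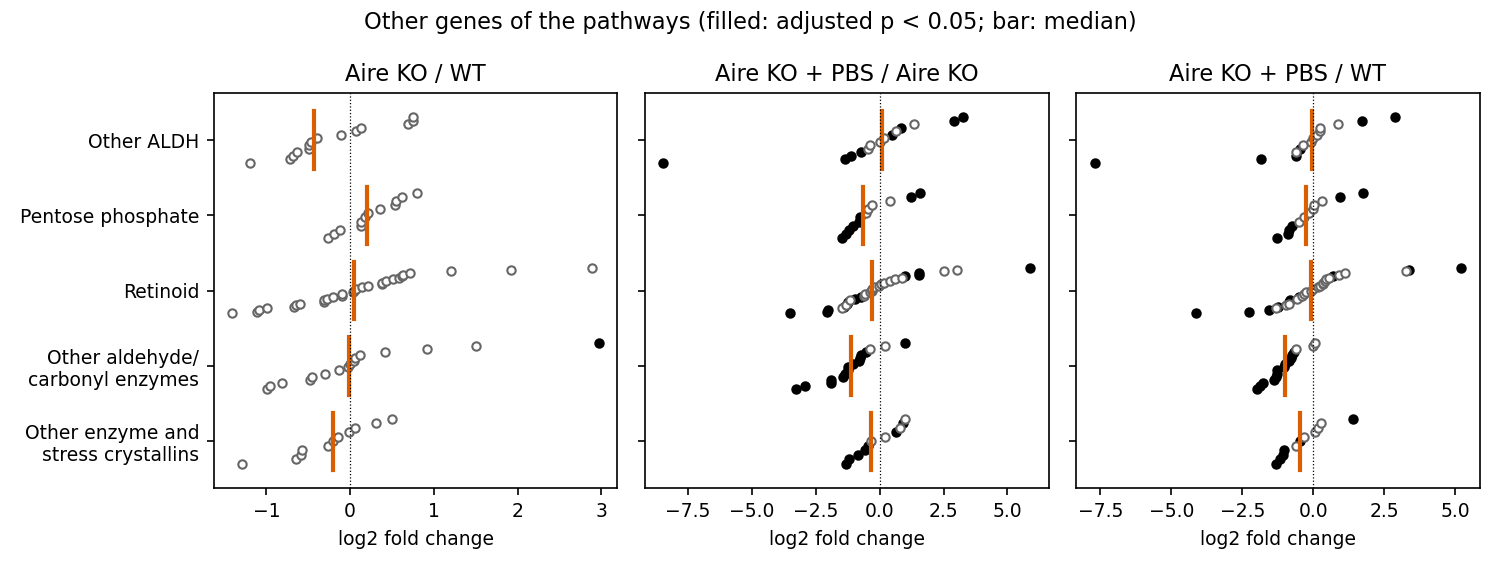
Log2 fold change of each tested gene of 5 lists around the enzymes in KO against WT, KO + PBS against KO and KO + PBS against WT (1 point per gene, filled at an adjusted p under 0.05 in the fit to all 9 libraries, bar at the list's median). In KO against WT a single point is filled (Akr1b8), and the aldehyde and carbonyl enzymes lie mostly left of 0 in both comparisons of KO + PBS (medians -1.14 and -1.01).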

How the data were processed

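The 9 libraries were assigned to KO + PBS, KO and WT by their titles, and every column of the count table was matched to a library by name. The deposited values are counts: whole-number reads per gene made by the authors, not normalized. The tools that the submitters' processing notes name are fastp, STAR and featureCounts, with build mm10. Their versions, the annotation, the strand setting and the handling of multiply mapped reads are not given in the sources. Per the labels' protocols, RNA was purified with the RNAaqueous kit and libraries were made with the NEBNext Ultra kit. The table has 23 rows that read as calendar dates (0.0318 to 0.140% of counts), which were left out of totals and tests.

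The counts were tested in R 4.3.3 with edgeR 4.0.16 and limma 3.58.1: filterByExpr, TMM scaling, 1 robust quasi-likelihood fit with a mean per group to all 9 libraries, and Benjamini-Hochberg adjustment over 18489 genes with a threshold of 0.05. The procedure was also run on simulated counts with a single spread for all genes and groups and no difference in the kind of library. That run does not show how the procedure performs on these libraries. CPM values are scaled by the TMM factors and levels per kilobase use the exon length in GENCODE M21. The ± beside a level is the SD and beside a log2 fold change the SE. DESeq2 1.42.0, other scalings and filters, a replicate block, a fit to only the groups compared and leaving out each library were alternatives; leaving out libraries within the fit to only the groups compared was chosen after seeing the data. Ratios were tested with exact permutation tests (scipy 1.17.1). A count of 0 allows up to 3 counts, or 0.0287 to 0.131 CPM, and such limits cover counting error only.

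Named were all 7 members, up to 4 called genes of each list per comparison with the smallest adjusted p, list members of known role, and 3 nearest genes for each of the 3 main enzymes. The members and lists were chosen with earlier results of these data known. Replicates are called biological in the labels, which do not say whether they are separate mice, so p-values measure only the spread between these samples. Replicate libraries of a group differed by more than sampling noise (chi-square per degree of freedom 18.8 to 306), so none was counted as a copy of another. Sequences are from RefSeq, aligned with Biopython 1.88.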

Additional observations from a re-analysis of the deposited data

Results flagged for a closer look

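In groups of 4 libraries, a value is listed here when its gap to the nearest other library exceeds 0.829 of the group's whole range (Dixon's 95% limit). KO + PBS is the only group of 4, 31 quantities were examined in it, and chance gives about 1 such value in 20. Aldh1a2 was 10.7 CPM in KO + PBS replicate 2, against 0.682 to 1.68 CPM in the other 3 libraries. The same library was high for the summed iris, ciliary body and melanocyte markers (3252 CPM, against 126 to 403 CPM). It was low for the summed pentose phosphate pathway genes (513 CPM, against 783 to 830 CPM). It was also low for the summed aldehyde-reducing and aldehyde-oxidising enzymes outside the Aldh family (2810 CPM, against 4639 to 4981 CPM). The summed gland markers were 357 CPM in KO + PBS replicate 4, against 115 to 138 CPM in the other 3 libraries.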

How the results depend on the processing

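In KO against WT, 308 genes were called (3356 at an unadjusted p under 0.05), against 1870 with DESeq2, 3681 in the fit to only these groups and 5 with the replicate block; leaving out 1 library in turn gave 0 to 2257, and 1305, 1370, 1596, 5392 and 6291 within the fit to only these groups. The 0 came from leaving out any of the 3 WT libraries (edgeR; 2184 to 2392 genes had an unadjusted p under 0.05), and 2257 from leaving out KO + PBS replicate 2. Members called numbered 1 in KO against WT, against 4 with DESeq2, 4 in the fit to only these groups and 0 with the replicate block. With 1 library left out, the fit to all libraries called 0 to 4 members and the fit to only these groups at least 1. In KO + PBS against KO, 9870 genes were called (7225 to 11738 without 1 library; 3928, 4702 and 6030 in the fit to only these groups without KO replicate 2, KO replicate 1 and KO + PBS replicate 3), and 2 members, against 1 with upper-quartile scaling, with no filter, in the fit to only these groups and with the replicate block (1 to 3 without 1 library). The member lost there was Aldh3a1. In KO + PBS against WT, 10555 genes were called, and 6 members, against 2 with the replicate block (3 to 7 without 1 library). Aldh1a1 and Aldh1a3 were called in KO + PBS against WT under each alternative tried.

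Aldh3a1 in KO against WT turned to a log2 fold change of 0.019 in the fit to only these groups without KO replicate 1. Aldh1a2 in KO + PBS against KO turned to -1.32 without KO + PBS replicate 2 (-1.25 in the fit to only these groups) and ranged up to 0.83 without another library. Upper-quartile scaling moved the median of all genes to 0.17 in both comparisons of KO + PBS; no member changed direction with the scaling, and Aldh1a7 and Aldh2 were no longer called against WT (adjusted p = 0.0764 and 0.0728). The cause of these changes was not tested. Replicate numbers did not pair the libraries: same-numbered libraries of different groups correlated from -0.343 to 0.132 in their deviations from the group mean, so the replicate block tests a shared number only. KO has 2 libraries and Aldh1a2 had 18 to 537 counts per library, which limits the precision of their values.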
